A study of Homo sapiens with 9 samples.

Results

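BACH1, BACH2, NFE2L2 (the gene of NRF2), MAFF, MAFG, MAFK and MAF were followed in activated Jurkat T cells. These 7 genes, of 19569 in the count table, were chosen by family membership, as the BACH repressors with their MAF partners and the competing activator NRF2, with earlier results of these libraries known, among them the high BACH2 level at 5 h. Their own values are therefore given as a description, without p-values. Jurkat Clone E6-1 is an established human leukaemic T-cell line. It was sequenced as mRNA from cells activated for 5 h, cells activated for 12 h and non-activated control cells (0 h), with 3 libraries in each group. For activation, an antibody to CD3 was bound to the plate from a solution of 10 µg/mL and an antibody to CD28 was given in the medium at 5 µg/mL. All 9 libraries come from this single line. No control cells kept for 5 or 12 h are labelled, so activation and time on the plate cannot be told apart. The 3 libraries of a group are described as biological replicates, with no word on separate cultures, and the p-values below therefore reflect a spread that could be technical.

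BACH1 and BACH2 are transcription factors of the cap'n'collar (CNC) basic leucine zipper type. They pair with a small MAF protein (MAFF, MAFG or MAFK), which has no activation domain of its own, and repress genes that carry Maf recognition or antioxidant response elements. NRF2 pairs with the same small MAFs on the same kind of element and activates. Haem binds BACH1 and releases it from DNA, whereas KEAP1 with the CUL3 ligase marks NRF2 for destruction, so both factors are strongly controlled at the protein level, which mRNA counts do not show. In mouse T cells BACH2 restrains effector genes, in part by competing with AP-1 factors for their sites. MAF is a large Maf protein with an activation domain, known in mouse T cells as a driver of Il4.

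Totals of the 9 libraries ranged from 4222258 to 9359187 counts, with the lowest and the highest both at 12 h. The cells carried T-cell transcripts: the summed level of 7 T-cell markers was 4747 to 5519 CPM (counts per 1e6 counts, with library sizes scaled by the trimmed mean of M values) at 0 h, 4676 to 5217 CPM at 5 h and 4530 to 5118 CPM at 12 h. Single markers moved within that sum. At an edgeR adjusted p under 0.05, CD3G (log2 -1.07) and CD3E (-0.35) were lower and CD28 (0.66) higher at 5 h against 0 h. At 12 h against 0 h CD3G (-1.14) was lower and CD28 (0.47) higher. The other 4 markers passed at 5 h in neither direction, nor did the other 5 at 12 h. Markers of myeloid cells summed to at most 3.01 CPM in any library and those of erythroid cells and megakaryocytes to at most 0.811 CPM, with 3 of those 6 genes at 0 in all libraries. B-cell markers summed to 162 to 203 CPM at 0 h, 89.6 to 119.5 CPM at 5 h and 130.2 to 155 CPM at 12 h. Nearly all of that was CD79A, since the other 4 B-cell markers averaged at most 0.42 CPM in any group. CD79A fell at 5 h against 0 h (log2 -0.80, edgeR adjusted p = 5.79e-06), and its part in the results below was not tested. The activation marker CD69 averaged 865.5 CPM at 5 h, against 73.3 CPM at 0 h (edgeR, adjusted p = 1.97e-16). In bulk samples, fewer cells with a transcript and less transcript per cell cannot be told apart.

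Promoter windows of 300 bases, 250 before and 50 after the RefSeq gene start (GRCh38.p14), were at hand for 6 of the 7 genes, all but MAFK. They were searched on both strands for the cyclic AMP response element TGACGTCA, the AP-1 core TGAGTCA and the antioxidant response element core TGACNNNGC. The AP-1 core is also the centre of one type of Maf recognition element, and the antioxidant response element core can overlap it. The following 30-base stretches, with the motif in capitals, are shown because BACH2, MAFF and MAF carry the same 8-letter element close to the start and BACH1 carries the AP-1 core.
BACH2 (chr6:90296907-90296936, minus strand): tggggagcgggTGACGTCAgcgccgaatgt
MAFF (chr22:38201929-38201958, plus strand): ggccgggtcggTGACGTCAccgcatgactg
MAF (chr16:79600764-79600793, minus strand): tcatttggaccTGACGTCAcgagtgctata
BACH1 (chr21:29298863-29298892, plus strand): cgcggaaggagTGAGTCAcctgaccgctgc
The element began 82 bases before the start in BACH2, 54 in MAFF and 45 in MAF, and the AP-1 core 48 before it in BACH1. BACH1 has 3 windows in the table and MAFF 2, for different starts, and the motif was found in 1 window of each. Of 35116 promoter windows of this length, 1.85% held TGACGTCA, 4.95% TGAGTCA and 13.3% TGACNNNGC. MAFF held an antioxidant response element core as well, on the minus strand 122 bases before its start. These are matches of letters and not measured binding. BACH2 and MAFF stood higher in activated cells, and MAF was close to the limit of detection. Any part of the element in these levels was not tested.

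BACH1 is also a known target of miR-155, a microRNA of activated lymphocytes. The study concerns microRNAs, so the pairing letters are printed, with bases 2 to 8 (the seed) of the microRNA and their match AGCATTA in capitals.
hsa-miR-155-5p (chr21:25573983-25574006, plus strand): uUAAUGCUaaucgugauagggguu
BACH1 site 1 (chr21:29343651-29343680): gattacactggcAGCATTAtctcaggctcc
BACH1 site 2 (chr21:29344999-29345028): tataaacagtttAGCATTAagggtttctat
BACH1 site 3 (chr21:29345060-29345089): ttcttaaaatttAGCATTActttaaatagc
BACH1 site 4 (chr21:29345209-29345238): tgtatattgcatAGCATTAcacatttatgc
All 4 sites lie in the 3′ UTR of BACH1, which has 3315 bases, and site 2 is followed by A. The other 6 genes had 0 matches in 3′ UTRs of 901 bases (NFE2L2) to 5879 bases (BACH2). A single transcript of each gene was searched, whereas MAF has 3 annotated transcripts and NFE2L2 14. Sites in other 3′ ends of these genes would therefore have been missed. Across 11946 tested genes with an annotated 3′ UTR, 1524 (12.8%) held at least 1 match. The microRNA itself was not analysed here.

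BACH2 (ENSG00000112182.15, chr6:89926529-90296908, minus strand, GENCODE 29 on GRCh38) had the largest difference in mRNA level between times of the 6 tested genes. It had 822.9, 725.2 and 771.1 CPM in the 5 h libraries, against 50.5, 56.5 and 47.0 CPM in the 0 h libraries, from 4922 to 5473 counts at 5 h and 378 to 395 at 0 h. Every 5 h library stood more than 10 times above every 0 h library, and the groups did not come near each other. The log2 fold change at 5 h was 3.92 ± 0.10 (SE), a 15.1-fold difference, and placed BACH2 at rank 91 of the 12036 genes tested, counted from the highest. At 12 h the libraries had 351.7, 318.3 and 321.3 CPM, all below the 5 h libraries and all above the 0 h libraries. The log2 fold change was 2.69 ± 0.10 for 12 h against 0 h (rank 131) and -1.23 ± 0.09 for 12 h against 5 h, which left 0.427 of the 5 h level.

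BACH1 (ENSG00000156273.16, chr21:29194071-29630751, plus strand), a haem-sensing repressor, moved little. It had 75.3, 61.6 and 76.0 CPM at 5 h, against 58.6, 51.6 and 42.1 CPM at 0 h. The 5 h libraries were all above the 0 h libraries, but by a narrow margin, and the log2 fold change was 0.48 ± 0.12. At 12 h it had 56.4, 55.2 and 60.9 CPM, overlapping the highest 0 h library, with a log2 fold change of 0.18 ± 0.12 against 0 h. For 12 h against 5 h it was -0.30 ± 0.12, with groups that did not overlap but with no call in the fit over all genes.

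NFE2L2 (ENSG00000116044.16, chr2:177227595-177392697, minus strand), the activator that competes with the BACH proteins, stood higher at both times. Its libraries had 181, 162.8 and 172.2 CPM at 5 h, against 63.7, 59.3 and 59.8 CPM at 0 h. The groups were far apart, with a log2 fold change of 1.50 ± 0.09, or 2.82-fold, at rank 376. At 12 h the libraries had 93.5, 85.2 and 95.8 CPM, between the 2 other groups and overlapping neither. The log2 fold change was 0.58 ± 0.09 for 12 h against 0 h and -0.91 ± 0.09 for 12 h against 5 h. NFE2L2 shares 17.6% of its exon bases with a same-strand transcript, AC019080.1, that has no row in the table, so reads of that stretch could belong to either.

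MAFF (ENSG00000185022.12, chr22:38200767-38216511, plus strand) was the small MAF that stood higher in activated cells, at low counts. It had 8.57, 9.46 and 11.4 CPM at 5 h (57, 70 and 73 counts), against 4.09, 3.59 and 4.39 CPM at 0 h (32, 24 and 36 counts). All 5 h libraries lay above all 0 h libraries, and the log2 fold change was 1.28 ± 0.22. At 12 h it had 6.10, 8.18 and 5.92 CPM, above every 0 h library and below every 5 h library. The log2 fold change for 12 h against 0 h, 0.76 ± 0.23, was called, but without 12 h replicate 2 it was 0.57 and not called. For 12 h against 5 h it was -0.51 ± 0.21 and not called, and -0.70 and called without that same library.

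MAFG (ENSG00000197063.11, chr17:81918270-81927714, minus strand), another small MAF, stayed closest to its starting level. It had 56.8, 56.5 and 63.8 CPM at 5 h, against 73.1, 70.1 and 63.7 CPM at 0 h, where the highest 5 h library just passed the lowest 0 h library. The log2 fold change was -0.22 ± 0.10 and not called. It was called lower with upper-quartile scaling (-0.31), in a fit of these 2 groups alone (-0.23) and without 0 h replicate 3 or 5 h replicate 3 (-0.28 each). At 12 h it had 69.8, 64.4 and 69.3 CPM, all within the 0 h range, with a log2 fold change of -0.03 ± 0.10 against 0 h and 0.20 ± 0.10 against 5 h.

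MAFK (ENSG00000198517.10, chr7:1530714-1543043, plus strand), the remaining small MAF, was lower in activated cells. It had 28.1, 39.6 and 38.9 CPM at 5 h, against 58.6, 48.9 and 50.1 CPM at 0 h. The groups did not overlap, and replicate 1 was the lowest of the 5 h libraries. Its log2 fold change was -0.56 ± 0.13, and -0.42 without that library, with the call kept. At 12 h MAFK had 32.5, 40.9 and 38.9 CPM, also all below the 0 h libraries, with a log2 fold change of -0.47 ± 0.13. The 12 h and 5 h libraries covered much the same range, and that log2 fold change was 0.09 ± 0.14. MAFK shares 18.2% of its exon bases with TMEM184A on the opposite strand, which averaged 2.57 CPM at 0 h, 1.04 CPM at 5 h and 0.957 CPM at 12 h.

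MAF (ENSG00000178573.7, chr16:79585843-79600714, minus strand) was close to the limit of detection. Its counts were 5, 4 and 2 at 5 h and 3, 1 and 5 at 12 h, against 8, 7 and 16 at 0 h. Summed over libraries this was 0.538 CPM at 5 h (exact 95% Poisson interval 0.269 to 0.963) and 0.449 CPM at 12 h (0.205 to 0.853), against 1.36 CPM at 0 h (0.927 to 1.94), intervals that cover counting error only. The highest activated library, at 0.752 CPM, was below the lowest 0 h library, at 1.02 CPM. MAF did not reach the count minimum for the test. Without that minimum its log2 fold change was -1.31 ± 0.65 at 5 h and -1.50 ± 0.68 at 12 h against 0 h, and neither was called in edgeR or, with -1.32 and -1.46, in DESeq2. In limma on the authors' log2 values it was -1.12 and not called at 5 h, and -1.29 and called lower at 12 h.

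**Figure D1:**
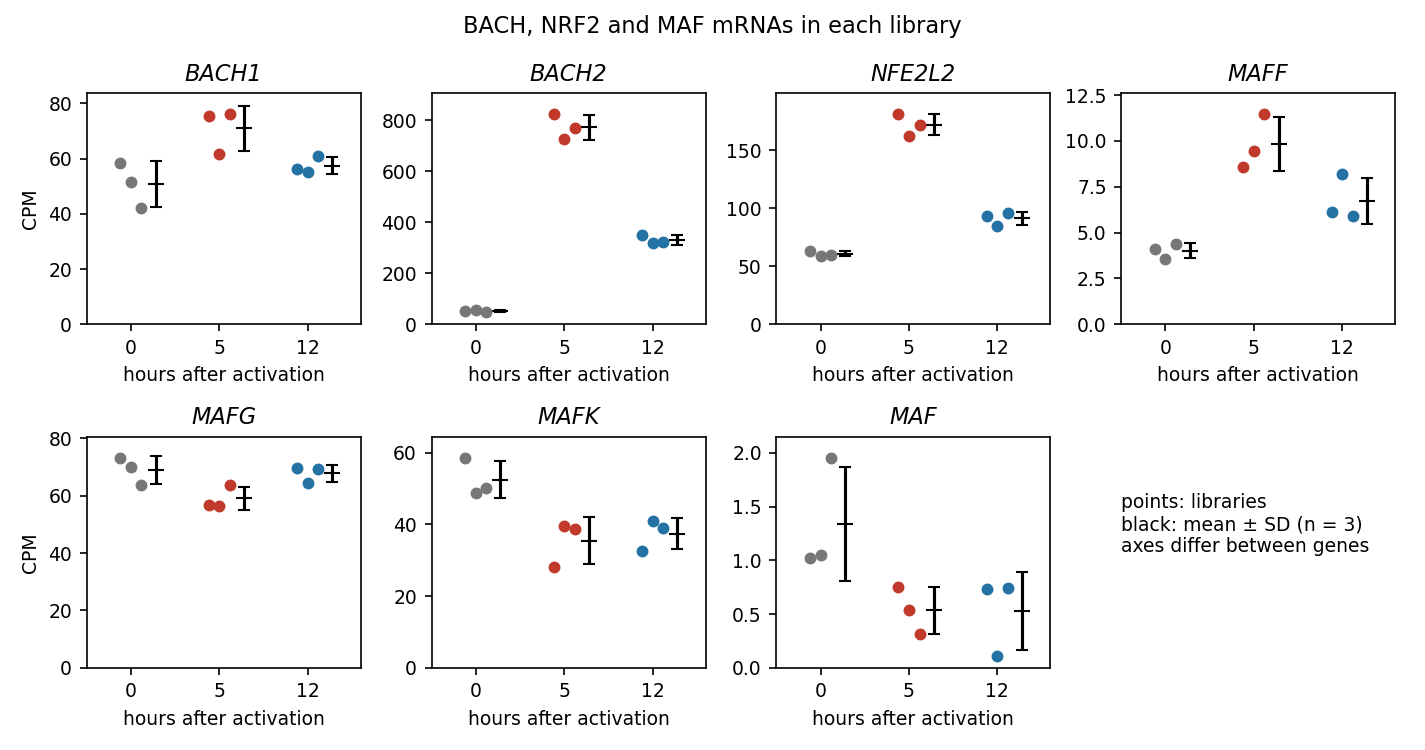
CPM of each gene (vertical axes from 0, different for each gene) in the 3 libraries at 0, 5 and 12 hours. Points are libraries and black marks are mean ± SD (n = 3). BACH2, NFE2L2 and MAFF peak at 5 h, MAFK stays below its 0 h libraries at both later times, and MAF lies under 2 CPM throughout.

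The calls of these genes in the fit over all genes follow. At 5 h against 0 h, 5 of the 6 tested were called at an adjusted p under 0.05, 4 higher (BACH1, BACH2, NFE2L2, MAFF) and 1 lower (MAFK), where 49.7% of all 12036 tested genes were called, 24.9% higher and 24.8% lower. At 12 h against 0 h, 4 were called, 3 higher (BACH2, NFE2L2, MAFF) and 1 lower (MAFK), where 51.1% of all genes were called, 26.3% higher and 24.8% lower. At 12 h against 5 h, 2 were called, both lower (BACH2, NFE2L2), where 36.1% were called, 18.1% higher and 18% lower. Since the genes were chosen with these contrasts known, nothing is read from those counts. The median log2 fold change over the 6 tested genes was 0.88 at 5 h and 0.38 at 12 h against 0 h, and -0.41 for 12 h against 5 h, where all tested genes had 0.00, -0.00 and 0.01. With upper-quartile scaling, 2412 genes were called higher and 3622 lower at 5 h, against 3001 and 2984 with the scaling used here, and the median over all genes moved to -0.085. The 5 members called kept their directions under that scaling. The comparisons with 0 h share the same control libraries and are not independent of each other.

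**Figure D2:**
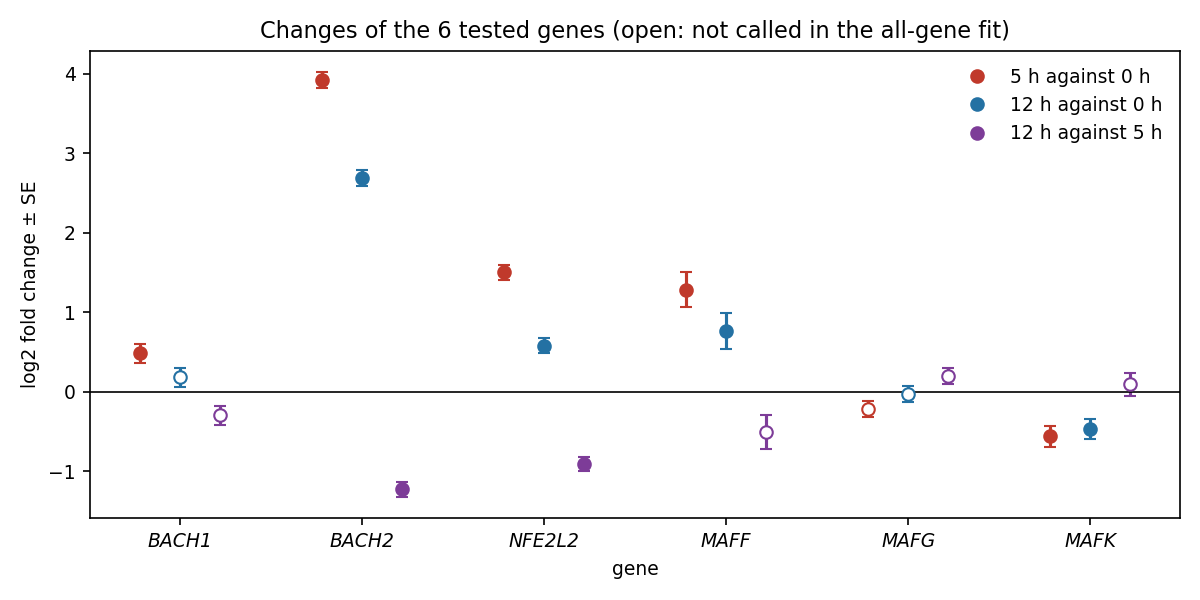
Log2 fold change ± SE (vertical axis) of the 6 tested genes in 3 comparisons. Filled points were called in the fit over all genes and open points were not. BACH2 spans from 3.92 at 5 h against 0 h to -1.23 at 12 h against 5 h, while every value of MAFG lies within 0.22 of 0.

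Division by length put the 7 genes on one scale, mean CPM per kb of exon union. At 0 h the order was MAFG 13.2, MAFK 11.8, NFE2L2 10.2, BACH1 6.58, BACH2 5.24, MAFF 0.717 and MAF 0.192 CPM per kb. MAFG and MAFK did not differ beyond their spread there, nor did BACH1 and BACH2, since their libraries overlapped. At 5 h the order was BACH2 79.0, NFE2L2 28.8, MAFG 11.3, BACH1 9.20, MAFK 7.97, MAFF 1.75 and MAF 0.0767 CPM per kb, and BACH1 overlapped with MAFK. BACH2 thus went to the top of the list, while MAFG, first before activation, came after NFE2L2. At 12 h the order was BACH2 33.8, NFE2L2 15.3, MAFG 13, MAFK 8.40, BACH1 7.45, MAFF 1.20 and MAF 0.0756 CPM per kb, and MAFK overlapped with BACH1. When the longest transcript stood in for the exon union, NFE2L2 came first at 0 h and BACH1 above MAFG at 5 h, so those positions depend on the length used, whereas BACH2 led at 5 h and 12 h with each of the 3 lengths tried.

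The make-up of the repressor pool changed with that order. On the per-kb scale the ratio of BACH2 to BACH1 mRNA was 0.808 ± 0.111 at 0 h, 8.63 ± 0.639 at 5 h and 4.54 ± 0.378 at 12 h (SD, n = 3 each). BACH2 thereby made up 44.5% of the BACH transcripts at 0 h, 89.6% at 5 h and 81.9% at 12 h. Summed BACH mRNA relative to NFE2L2 mRNA was 1.16 ± 0.119 at 0 h, 3.06 ± 0.0446 at 5 h and 2.70 ± 0.136 at 12 h. Libraries of different times did not overlap in any of these ratios. With the longest transcripts the ratio to NFE2L2 was 0.675, 1.61 and 1.44 at 0, 5 and 12 h, so whether repressor mRNA exceeded activator mRNA before activation depended on the length used. BACH1 alone moved the other way relative to NFE2L2, with 0.644 at 0 h, 0.319 at 5 h and 0.487 at 12 h.

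The small MAF pool, the shared partners, changed far less. It summed to 25.7 ± 1.92 CPM per kb at 0 h, 21.0 ± 2.15 at 5 h and 22.6 ± 0.742 at 12 h (SD, n = 3 each). Relative to that pool, summed BACH mRNA was 0.459 ± 0.0372 at 0 h, 4.24 ± 0.672 at 5 h and 1.83 ± 0.142 at 12 h, so BACH transcripts were the less abundant side at 0 h and the more abundant side in all 6 activated libraries. MAFF took 2.80 ± 0.374% of the pool at 0 h, 8.30 ± 0.512% at 5 h and 5.30 ± 0.922% at 12 h. MAFG was the largest part at each time, with 51.4%, 54.0% and 57.6% at 0, 5 and 12 h, and MAFK had 45.8%, 37.7% and 37.1%. With the longest transcripts MAFK was the larger part at 0 h, with 51.1%, and MAFG had 44.9%.

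**Figure D3:**
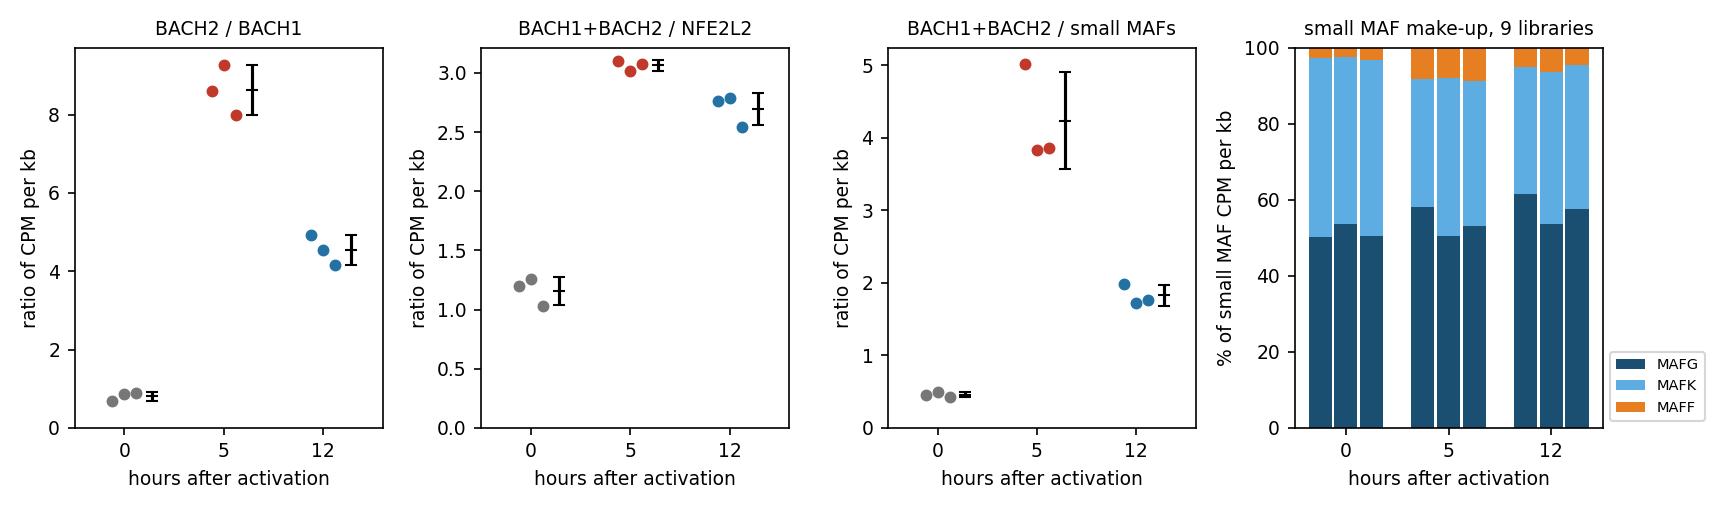
Ratios of CPM per kb (vertical axes from 0) for BACH2 to BACH1, both BACH genes to NFE2L2, and both BACH genes to the 3 small MAFs, in each library (points) with mean ± SD (black) at 0, 5 and 12 hours, and the percentage of the small MAF pool held by each small MAF in the 9 libraries (stacked bars). All 3 ratios are highest at 5 h, and MAFF stays the smallest part, at 2.80% on average at 0 h and 8.30% at 5 h.

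Genes with the most similar profile were taken by distance between centred log2 CPM over the 9 libraries, as a description of shared library values. For BACH2 they were ZFP36L1 (distance 0.602, r = 0.994), SGK1 (0.645, r = 0.998), FOS (0.709, r = 0.990), NAB2 (0.730, r = 0.990) and CD69 (0.745, r = 0.993). ZFP36L1, which encodes an mRNA-decay protein, had 40.4 CPM at 0 h, 651 CPM at 5 h and 323 CPM at 12 h, and SGK1, a serum-regulated kinase, had 7.75, 88.6 and 40.5 CPM at the same times. NFE2L2 lay nearest to ANKRD28 (0.298), UBXN10 and ATP6V1B2, and MAFF to MAP3K14 (0.310), which encodes an NF-kappaB pathway kinase, RRP12 and PHF21B. BACH1 lay nearest to RAP2C (0.225), YTHDF3 and SCYL2, MAFG to LUC7L2 (0.157), STRBP and AP1AR, and MAFK to FAM89B (0.191), MAZ and LMNB2. In all 4 of these last genes replicate 1 was the lowest library at 5 h and at 12 h. FAM89B, MAZ and LMNB2 were picked for likeness to MAFK over these same libraries, so the shared low values show nothing about the libraries. In BACH2 replicate 1 was the highest library at both times (822.9 CPM at 5 h and 351.7 CPM at 12 h). Any part of library differences in the MAFK values was not tested. Without 12 h replicate 1, MAFK had a log2 fold change of -0.40 for 12 h against 0 h. By Pearson correlation in place of distance, 0 of the 5 genes nearest to BACH2 were the same, and 0 of 3 for BACH1, NFE2L2 and MAFG, 1 of 3 for MAFF and 2 of 3 for MAFK, so these lists rest on the measure.

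**Figure D4:**
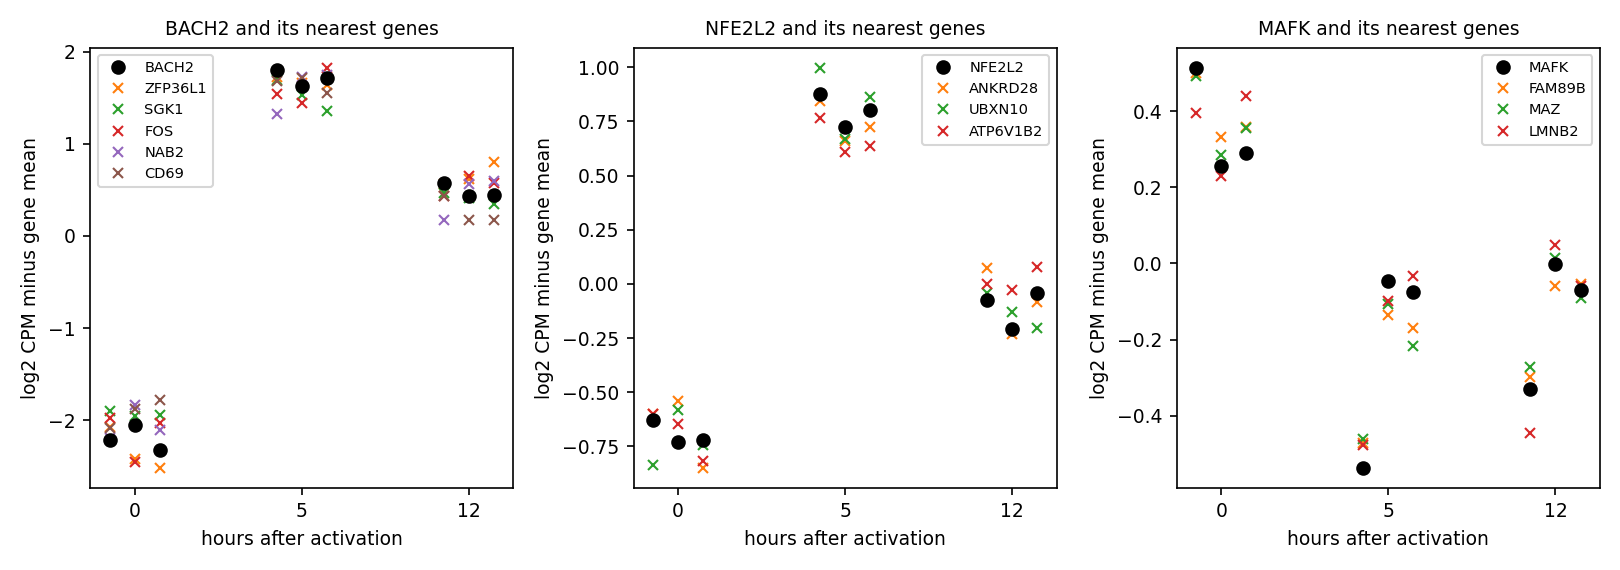
Log2 CPM minus the gene's mean over 9 libraries (vertical axis) at 0, 5 and 12 hours for BACH2, NFE2L2 and MAFK (black points) and the genes with the most similar profile (crosses). BACH2 and its 5 genes are high at 5 h and intermediate at 12 h. MAFK and its 3 genes, chosen for likeness over these same libraries, are low in replicate 1 at both 5 h and 12 h.

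Relatives of the 7 genes that the choice left out split in direction. NFE2L3, a CNC factor close to NRF2, rose to 156 CPM at 5 h, against 53.6 CPM at 0 h, by 1.54 ± 0.10 (log2, SE; edgeR adjusted p = 3.46e-11). At 12 h it had 112 CPM, still above 0 h by 1.05 (adjusted p = 1.97e-08) and below 5 h by -0.49 (adjusted p = 0.000399). NFE2L1, the CNC factor that controls proteasome genes, fell to 180 CPM at 5 h, against 274 CPM at 0 h (log2 -0.60 ± 0.10, edgeR adjusted p = 3.43e-05), and had 317 CPM at 12 h, higher than 5 h by 0.81 (adjusted p = 2.8e-06). NRL, tested at about 2 CPM, gave no call, and NFE2 and MAFA, at no more than 0.705 CPM in any group, were not tested.

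Proteins that degrade or hold NRF2 and BACH1 came from 13 genes, all tested. At 5 h 2 were higher and 4 lower, with a median log2 fold change of -0.04, and at 12 h against 0 h 2 were higher and 5 lower, with a median of -0.11. The shares called, 46.2% at 5 h and 53.8% at 12 h, lay near the 49.7% and 51.1% of all genes. KEAP1, the sensor that hands NRF2 to CUL3, fell to 40.8 CPM at 5 h and 40.1 CPM at 12 h, against 60.9 CPM at 0 h (log2 -0.58 ± 0.13 at each time, edgeR adjusted p = 0.000896 and 0.000898). FBXL17, an F-box protein that marks BACH1 for degradation, fell to 16.2 CPM at 5 h, against 30.1 CPM at 0 h (log2 -0.90 ± 0.14, edgeR adjusted p = 2.97e-05), and by 0.70 at 12 h (adjusted p = 0.000388). BTRC, which encodes the beta-TrCP ligase component that acts on NRF2 apart from KEAP1, rose to 56.6 CPM at 5 h, against 38.1 CPM at 0 h (log2 0.57 ± 0.10, edgeR adjusted p = 8.91e-05). Its paralog FBXW11 rose by 0.39 at 5 h (adjusted p = 0.00106). Neither BTRC nor FBXW11 was called at 12 h against 0 h (-0.11 and 0.14). Both were called lower at 12 h against 5 h (log2 -0.68 and -0.24). In that comparison 3 of the 13 genes were higher and 3 lower, 46.2%, beside 36.1% of all genes. At 12 h CUL3 was lower than at 0 h by -0.39 (adjusted p = 0.00164) and RBX1, the ring subunit, by -0.34 (adjusted p = 0.0165), a call lost without 12 h replicate 2 (-0.23). SQSTM1, which sequesters KEAP1, fell by 0.36 at 5 h (adjusted p = 0.0115), GSK3B by 0.24 at 5 h and 0.30 at 12 h, while DCAF11 and DPP3 were higher at 12 h by 0.28 and 0.24. FBXO22, another F-box protein for BACH1, had log2 fold changes of 0.03 and 0.22 and was not called, and GSK3A and SYVN1 were not called either.

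Known or reported targets of the BACH and NRF2 pairs, 38 genes in 4 lists of which 31 were tested, moved in both directions. At 5 h against 0 h 6 rose and 10 fell, 51.6% of those tested, with a median log2 fold change of 0.02. At 12 h against 0 h 8 rose and 5 fell, 41.9%, with a median of -0.11, and at 12 h against 5 h 4 rose and 5 fell, 29%, with a median of 0.12. Of all genes tested, 24.9% rose and 24.8% fell at 5 h against 0 h, 49.7% in all. At 12 h against 0 h 26.3% rose and 24.8% fell, 51.1% in all. At 12 h against 5 h 18.1% rose and 18% fell, 36.1% in all. The 8 that rose at 12 h against 0 h include AKR1C1, which passed the count minimum through 12 h libraries. HMOX1, the haem oxygenase that is the classical BACH1 target, had 0 counts in all 9 libraries, which allows up to 0.132 CPM at 0 h, 0.147 CPM at 5 h and 0.150 CPM at 12 h (3 counts over a group, counting error only). MGST1, AKR1B10 and ME1 were likewise at 0 throughout, and GPX2, AKR1C2 and CBR1 were too low to test. Of the 28 genes of these lists with a promoter window, 12 held TGACNNNGC, where 16.1% of all genes with a window did.

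Of the haem and iron genes, 5 of 8 tested were lower and 1 higher at 5 h, where 24.8% of all genes were lower and 24.9% higher. FECH, the enzyme that inserts iron into haem, fell to 29.6 CPM at 5 h and 28.5 CPM at 12 h, against 51.2 CPM at 0 h (log2 -0.79 ± 0.12 and -0.86 ± 0.12, edgeR adjusted p = 9.07e-06 and 3.86e-06). SLC40A1, the iron exporter ferroportin, fell to 19.1 CPM at 5 h and 14.9 CPM at 12 h, against 30.2 CPM at 0 h (log2 -0.66 ± 0.13 and -1.03 ± 0.14, edgeR adjusted p = 0.000329 and 3.39e-06). ABCB6, a porphyrin transporter, fell by 0.66 at 5 h (adjusted p = 0.00916), and the biliverdin reductases BLVRA and BLVRB by 0.40 and 1.02. The 5 h and 0 h libraries of BLVRA overlapped, and BLVRB had at most 28 counts a library and lost its call in 5 of 16 alternative settings. FTH1, ferritin heavy chain, rose by 0.27 at 5 h and 0.31 at 12 h, whereas the light chain FTL, at -0.20 and -0.02, was not called. SLC48A1, a haem transporter, was 25.4 CPM at 12 h, against 15.4 CPM at 0 h (log2 0.71 ± 0.17, edgeR adjusted p = 0.00157), with no call at 5 h (-0.23).

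Glutathione genes had 3 of 8 tested higher at 5 h and none lower, where 24.9% of all genes were higher and 24.8% lower. The share called in either direction was 37.5%, beside 49.7% of all genes. SLC7A11, the cystine importer, rose to 17.8 CPM at 5 h, against 10.5 CPM at 0 h (log2 0.75 ± 0.16, edgeR adjusted p = 0.000776). ABCC1, an exporter of glutathione conjugates, had 592 CPM at 5 h and 589 CPM at 12 h, against 386 CPM at 0 h (log2 0.62 ± 0.10 and 0.61 ± 0.10, edgeR adjusted p = 3.01e-05 and 3.46e-05). GCLC, the catalytic subunit of glutathione synthesis, rose by 0.37 at 5 h (adjusted p = 0.00278), while its partner GCLM had 0.05 and was not called. At 12 h GSS was higher than at 0 h by 0.49 and GSR, glutathione reductase, lower by -0.37. GSTP1 and GSTM3 were called in no comparison.

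Among 5 thioredoxin genes PRDX1, an abundant peroxiredoxin, had the clearest change, with 912 CPM at 5 h and 990 CPM at 12 h, against 334 CPM at 0 h (log2 1.45 ± 0.09 and 1.57 ± 0.09, edgeR adjusted p = 3.15e-11 and 1.46e-11). PRDX6 rose by 0.24 at 5 h, a call lost in 7 of 16 alternative settings, and by 0.43 at 12 h (adjusted p = 0.001). TXNRD1, thioredoxin reductase, and SRXN1, sulfiredoxin, were not called at 5 h (0.22 and 0.07) and fell at 12 h against 0 h by 0.41 (adjusted p = 0.00194) and 0.69 (adjusted p = 0.00583). TXN was not called against 0 h at either time.

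Of the quinone and NADPH genes, 5 of 10 tested fell at 5 h and none rose, where 24.8% of all genes were lower and 24.9% higher. The share called in either direction was 50%, beside 49.7% of all genes. TKT, PGD and TALDO1, enzymes of the pentose phosphate pathway, fell by 0.42, 0.40 and 0.32 (edgeR adjusted p = 0.00111, 0.00214 and 0.00697), and EPHX1 by 0.49, a call lost in 6 of 16 alternative settings. None of these was called at 12 h against 0 h (TKT -0.11, PGD -0.14, TALDO1 -0.15, EPHX1 -0.15). TKT and PGD were called higher at 12 h than at 5 h, by 0.32 and 0.26. Those calls were lost in 2 and 9 of 16 alternative settings. IDH1, cytosolic isocitrate dehydrogenase, fell to 36.8 CPM at 5 h, against 44.0 CPM at 0 h (log2 -0.26 ± 0.10, edgeR adjusted p = 0.0433), yet had 73.7 CPM at 12 h, above 0 h by 0.75 (adjusted p = 2.96e-06). NQO1, the usual reporter gene of NRF2, averaged 2.81 CPM at 0 h, 2.87 CPM at 5 h and 1.80 CPM at 12 h and was not called. AKR1C1, at 4 to 21 counts a library, was higher at 12 h by 1.24, a call lost in 6 of 16 alternative settings. It passed the count minimum through 12 h libraries, so this call supports nothing.

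Effector genes linked to BACH2 by work in mouse lymphocytes were 10, of which 6 were tested. All 6 were higher at 5 h against 0 h, where 24.9% of all genes were. At 12 h against 0 h 3 were higher and 1 lower, where 26.3% and 24.8% of all genes were. IRF4 and PRDM1 had at most 11 counts in a 0 h library and passed the count minimum through activated libraries, so neither their calls nor a count over the genes tested supports anything. CCR4, a chemokine receptor, rose to 87.0 CPM at 5 h and 51.3 CPM at 12 h, against 23.4 CPM at 0 h (log2 1.89 ± 0.12 and 1.11 ± 0.13, edgeR adjusted p = 8.29e-11 and 5.04e-07). PRDM1, which encodes Blimp-1 and is repressed by BACH2 in mouse B cells, had 26, 17 and 18 counts at 5 h, against 3, 1 and 11 at 0 h (log2 2.16 ± 0.49), and the log2 value was 3.36 without 0 h replicate 3 and 1.75 without 0 h replicate 2. IRF4 had 15, 15 and 17 counts at 5 h, against 2, 0 and 3 at 0 h (log2 3.29 ± 0.57), with 3.90 without 0 h replicate 3 and 2.81 without 0 h replicate 2. GATA3, the T helper 2 regulator, rose by 0.65 at 5 h and 0.74 at 12 h, and NFIL3 by 0.77 at 5 h. IL13 had 24, 22 and 24 counts at 5 h, against 12, 11 and 20 at 0 h (log2 0.86 ± 0.34, edgeR adjusted p = 0.0394), a call lost in 9 of 16 alternative settings. At 12 h it had 2, 2 and 1 counts, below 0 h by -2.82 (adjusted p = 0.000232). AHR, IL1RL1, IL4 and IL5 were too low to test, as were IL10 and IL21, which with IL4 formed the list linked to MAF.

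AP-1 factors, whose sites BACH2 can share, had 8 of 9 tested higher and none lower at 5 h, where 24.9% of all genes were higher and 24.8% lower, and 4 higher and 1 lower at 12 h against 0 h, where 26.3% and 24.8% were. FOS and FOSB, with at most 9 counts in a 0 h library, passed the count minimum through activated libraries, so those counts support nothing about the list. FOS averaged 17.0 CPM at 5 h, against 1.00 CPM at 0 h (log2 4.04 ± 0.25), JUND 219 CPM against 73.0 CPM, and JUNB 79.8 CPM against 23.1 CPM, while BATF, at 1.69 CPM against 2.02 CPM, was not called. FOSL2 rose to 34.9 CPM at 5 h, against 9.93 CPM at 0 h (log2 1.82 ± 0.16, edgeR adjusted p = 1.23e-08), and had 5.63 CPM at 12 h, below 0 h by -0.78 (adjusted p = 0.00356). In promoter windows, TGAGTCA was found in GATA3 and PRDM1, 2 of the 9 BACH2-linked genes with a window. Among the antioxidant lists it was found in GSTP1, ME1 and OSGIN1, 3 of 28. Of all genes with a window, 6.05% held it.

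**Figure D5:**
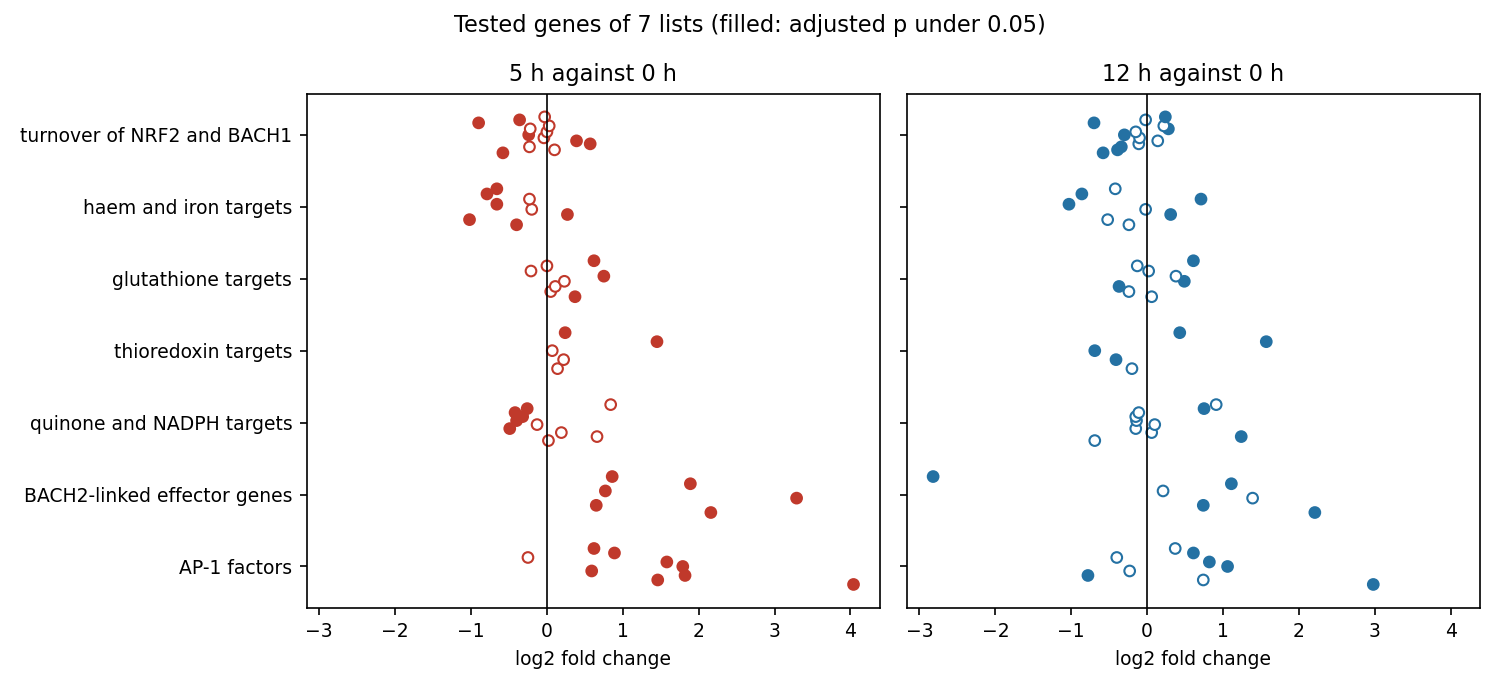
Log2 fold change (horizontal axis) of each tested gene of 7 lists for 5 h against 0 h and 12 h against 0 h. Filled points had an adjusted p under 0.05 and open points did not. Haem and iron genes lie mostly left of 0 at 5 h, antioxidant lists lie on both sides, and BACH2-linked and AP-1 genes lie mostly to the right at 5 h, with FOS at 4.04 and IRF4 at 3.29.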

How the data were processed

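The authors deposited counts per Ensembl gene for the 9 libraries, as whole numbers with no normalization that the values show. The authors also deposited log2 expression values for 12692 genes, which served as 1 alternative. Per the submitters' processing notes, cutadapt, RSEM and DESeq2 were used with build GRCh38.p13; their versions, and the annotation and strand setting, were not given in the sources used here. The counts may be rounded RSEM estimates, and without a strand setting reads of overlapping genes cannot be told apart. Libraries came from total RNA with RealSeq kits, per the labels' protocols.

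Counts were scaled by TMM and tested in edgeR 4.0.16 (quasi-likelihood, filterByExpr with a minimum count of 10, all 9 libraries), with Benjamini-Hochberg adjustment over 12036 genes. The fit was tested on simulated counts. "Called" means an adjusted p under 0.05. Alternatives were other scalings, no filter, DESeq2 1.42.0, limma 3.58.1, a replicate block, fits of 2 groups and leaving out each library. Members and lists were chosen with earlier results of these data known. Named genes are all members, the 5 (BACH2) or 3 nearest genes by distance of log2 CPM with a prior count of 2, all relatives, and up to 4 called genes of each list and comparison by size of change, with uncalled ones named to account for a list; CD79A, GSK3B, DPP3, BLVRA and the genes with promoter matches were named outside that rule after their values were seen. Lengths, positions and overlaps come from GENCODE 29 and sequences from RefSeq (GRCh38.p14); coordinates were not converted. Ribosome profiling and small RNA were not analysed here. Some genes of the lists are not reported here by name.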

Additional observations from a re-analysis of the deposited data

Results flagged for a closer look

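The 12 h and 5 h groups were called in opposite directions against 0 h for 3 genes of the lists, and in each the difference between 12 h and 5 h was itself tested in edgeR. At 5 h against 0 h the calls of IDH1 (edgeR adjusted p = 0.0433) and IL13 (edgeR adjusted p = 0.0394) were close to the threshold. That of IL13 was lost in 9 of 16 alternative settings. IDH1 averaged 73.7 CPM at 12 h, against 36.8 CPM at 5 h, a log2 difference of 1.01 (adjusted p = 2.87e-07), with 44.0 CPM at 0 h. IL13 averaged 0.285 CPM at 12 h, against 3.45 CPM at 5 h, a log2 difference of -3.68 (adjusted p = 1.3e-05), with 1.87 CPM at 0 h. FOSL2 averaged 5.63 CPM at 12 h, against 34.9 CPM at 5 h, a log2 difference of -2.60 (adjusted p = 1.71e-09), with 9.93 CPM at 0 h.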

How the results depend on the processing

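Over 16 alternative settings the count of genes called stayed within 5139 to 6331 for 5 h against 0 h, 5517 to 6499 for 12 h against 0 h and 3284 to 4522 for 12 h against 5 h, and the members called within 5 to 6, 3 to 5 and 2 to 3. Of 288 recomputed fold changes of members, 274 kept direction and side of the threshold, 1 lost its call, 10 gained one and 3 changed sign, all 3 among values not called: MAFG at 12 h against 0 h ranged from -0.08 to 0.02 and MAFK at 12 h against 5 h from -0.05 to 0.18 when 1 library was left out. BACH1 at 12 h against 5 h was called lower in 5 settings (no filter, the fit of 2 groups, without 0 h replicate 1 or 3, without 5 h replicate 2), at -0.29 to -0.39. With exon unions of basic transcripts only, 4 of the 7 genes kept their rank at 0 h. The replicate block gave 5981, 6176 and 4285 genes called in the 3 comparisons; same-numbered libraries did not deviate together (correlations of -0.143 to 0.163), so the numbers were not taken as pairs. The cause of these differences was not tested. MAF, with 1 to 16 counts a library, is limited by depth.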
